A study of Mus musculus with 4 samples.

Results

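Levels of 9 junction genes were followed through the ovarian cell types of 4 mouse libraries. The genes were the gap junction genes Gja1, Gja4, Gja5 and Gjc1 and the cadherin genes Cdh1, Cdh2, Cdh5, Cdh11 and Cdh12. They were given by name, not chosen by a measured value, and made up 9 of the 32285 genes in the count tables. Ovaries of 8-week-old littermate females were dissociated and profiled by droplet single-cell RNA-seq, which counts unique molecular identifiers (UMIs) at the 3′ ends of transcripts. The control group held 2 Fosl2F/F libraries, from mice homozygous for a Fosl2 allele with loxP sites, which the labels also call WT. The other group held 2 Fosl2cKO libraries, from Cyp19a1-Cre; Fosl2flox/flox mice that carry the same floxed alleles and a Cre driven by the aromatase gene, which is active in granulosa cells (GCs). Cell types other than GCs were not the stated target of that Cre, and whether it had acted in any of them was not tested. The stated group size equals the number of libraries, and whether each library held a single animal is not given in the sources used here, so the tests measure the spread between libraries.

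Gap junctions are clusters of channels that join the cytoplasm of neighbouring cells, and each half-channel is a ring of connexin proteins. In the follicle, connexin 43 (Gja1) couples GCs to each other, and connexin 37 (Gja4) is the oocyte's connexin at its contacts with the surrounding GCs. Cadherins are calcium-dependent adhesion proteins that bind like cadherins on the next cell and are tied to actin through catenins: E-cadherin (Cdh1) is the classical epithelial member, N-cadherin (Cdh2) is found in GCs, VE-cadherin (Cdh5) holds the endothelium together, and cadherin 11 (Cdh11) is a mesenchymal member.

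Fosl2 encodes a subunit of the transcription factor AP-1, so the upstream sequence of the member most abundant in GCs is shown beside those of a member of oocytes and vessels and a member of cumulus-like cells. Windows for 4 of the 9 genes (Gja1, Gja4, Gja5 and Cdh12) were taken from the RefSeq promoter table (GRCm38.p6). The other genes were not searched, so nothing is shown here about their upstream sequences. The letters TGANTCA, the AP-1 core, which reads the same on both strands apart from the N, were searched for in the 300 bases from 250 before to 50 after each start. They occurred in 2565 of all 32851 windows of that length (7.81%). The 250 bases before the start are printed 5′ to 3′ on the strand of the gene, from chr10:56377050-56377299 (plus strand) for Gja1, chr4:127314040-127314289 (minus strand) for Gja4 and chr15:21111202-21111451 (plus strand) for Cdh12, and capitals mark a match.
Gja1: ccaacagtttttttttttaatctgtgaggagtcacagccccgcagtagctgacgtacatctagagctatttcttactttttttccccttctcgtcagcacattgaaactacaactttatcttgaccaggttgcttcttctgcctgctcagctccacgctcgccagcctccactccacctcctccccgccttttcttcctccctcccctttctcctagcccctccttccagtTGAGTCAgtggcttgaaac
Gja4: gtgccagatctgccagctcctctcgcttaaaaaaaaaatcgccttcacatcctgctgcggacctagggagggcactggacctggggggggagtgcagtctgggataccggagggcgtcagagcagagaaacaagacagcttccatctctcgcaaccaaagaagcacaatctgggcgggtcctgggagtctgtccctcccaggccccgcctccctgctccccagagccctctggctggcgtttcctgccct
Cdh12: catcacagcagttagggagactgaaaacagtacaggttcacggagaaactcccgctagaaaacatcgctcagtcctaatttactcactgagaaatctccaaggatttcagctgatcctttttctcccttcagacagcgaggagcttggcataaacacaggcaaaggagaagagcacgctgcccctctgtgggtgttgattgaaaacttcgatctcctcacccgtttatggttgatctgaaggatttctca
Gja1 held 1 match, TGAGTCA, that began 19 bases before the start (position -19), and Gja4, Gja5 and Cdh12 held 0 in this window. The windows of Cdh12 and Gja5 lie at RefSeq starts inside the gene spans given below, not at their 5′ ends. The RefSeq start of Gja1, next to 56377299, lies upstream of its span given below, which begins at 56377330. Position -19 is counted from the RefSeq start. A match of letters is a description of the window and shows no binding.

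The libraries held 120327227 to 148836173 UMIs, and 6760 to 19575 cells per library (41538 in all) passed the filters, with medians of 3654 to 12479 UMIs per cell. Fosl2F/F replicate 2 stood apart, with the most cells and the fewest UMIs per cell. Any pair of libraries shared 15 to 81 cell barcodes. Cells fell into 12 named classes and 4 unnamed clusters (9866 cells, 23.8%), and the 15800 GC-like cells fell into 6 named states and 782 unnamed cells. Clusters were found without the 9 genes and named from other markers, hence the ending "-like". Levels are given in CPM, the UMIs of a gene scaled to a common total of UMIs of the class and library, in the order Fosl2F/F replicates 1 and 2, then Fosl2cKO replicates 1 and 2, and means are over 4 libraries with the SD. Because clusters come from the same cells, levels in different classes are described without a test. The GC-like level of Fosl2, the targeted gene, was 161 and 167 CPM for Fosl2F/F against 167 and 115 CPM for Fosl2cKO, so 1 library labelled Fosl2cKO did not fall below the controls. The counts are per gene and do not give where in the transcript a UMI fell. Whether that level reflects the deletion was therefore not tested.

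Each of the 9 genes had a leading class, and for all 9 the leading class was the same under the 6 other clusterings and cell filters tried. Gja1, Cdh2 and Cdh12 were highest in GC-like cells, Gja4 in oocyte-like cells, Gja5 and Cdh5 in endothelial-like cells, Gjc1 in pericyte or smooth muscle-like cells, Cdh1 in epithelial-like cells and Cdh11 in stromal-like cells. The ranges over libraries of the first and second class overlapped for Cdh2 and Cdh12 and were apart for the other 7 genes.

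**Figure D1:**
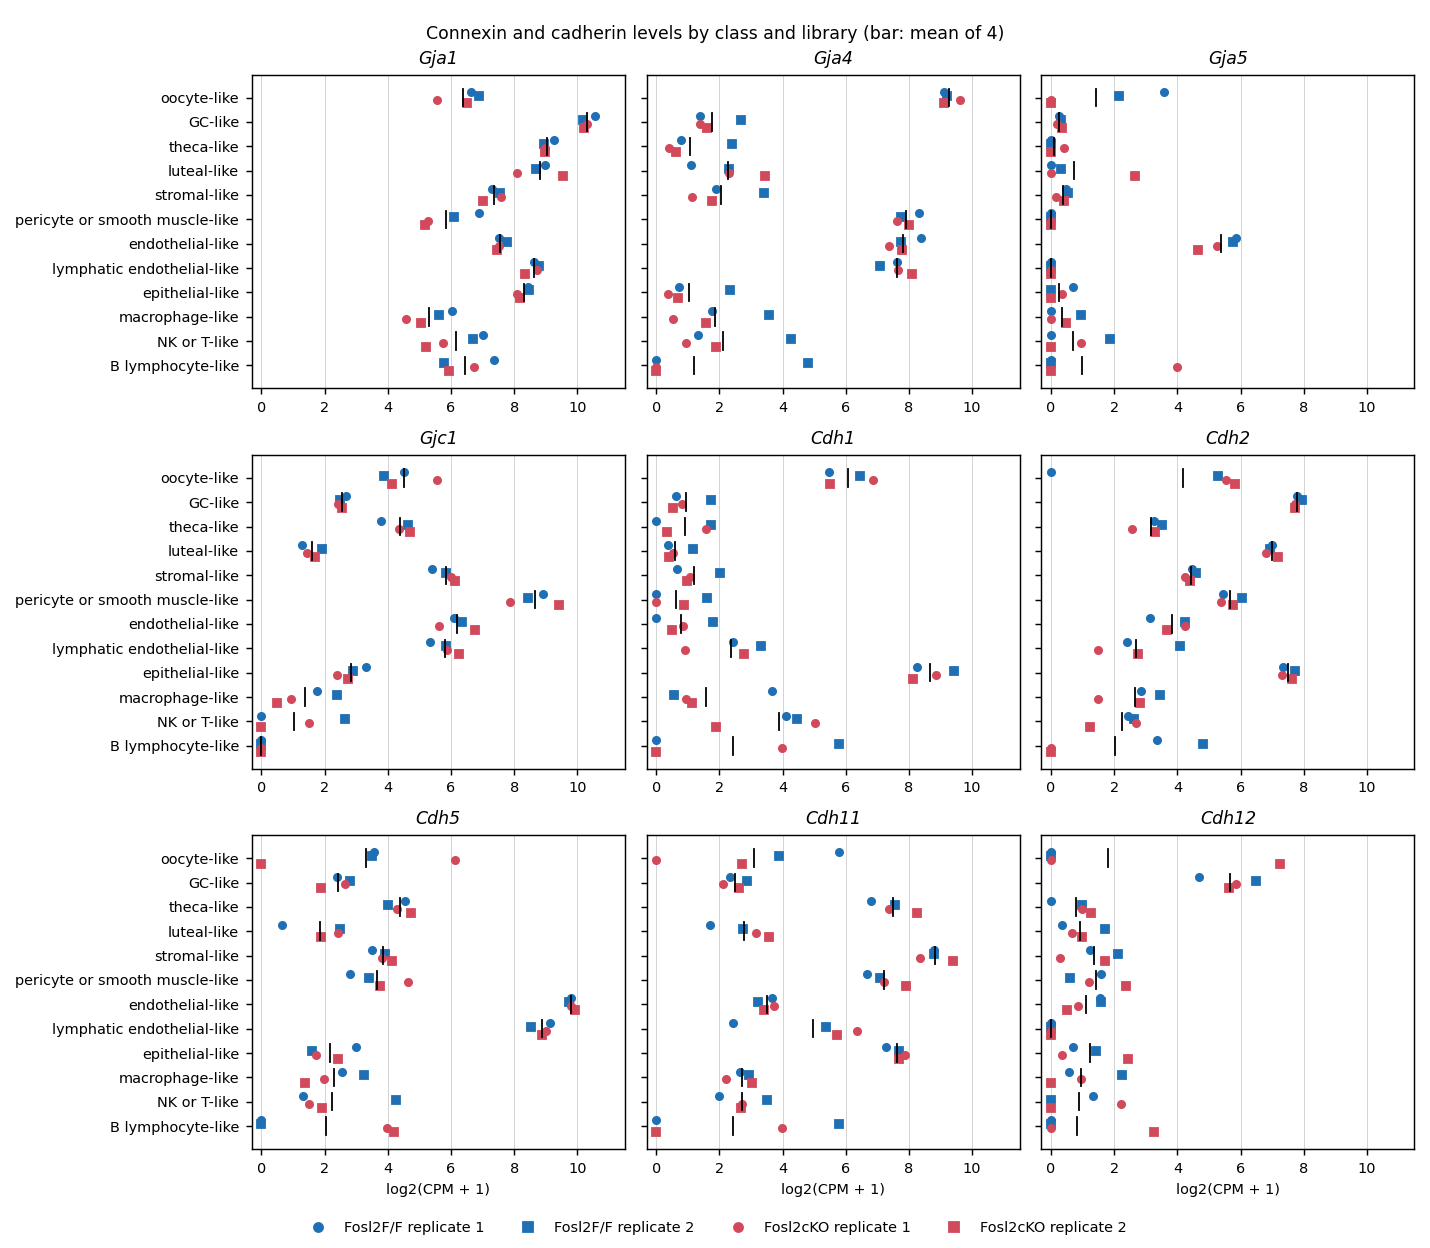
Level of each gene, as log2(CPM + 1) on the horizontal axis, in the 12 named classes. Points are the 4 libraries (blue Fosl2F/F, red Fosl2cKO; circle replicate 1, square replicate 2) and the black bar is their mean. Gja1 stands at 1155 to 1513 CPM in GC-like cells, whereas Gja4 and Cdh5 lie far to the left in GC-like cells and to the right in the vascular classes.

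Gja1 (chr10:56377330-56402513, plus strand; GRCm38 here and below) was the connexin of the follicle wall. In GC-like cells it stood at 1513, 1155, 1271 and 1197 CPM (1284 ± 160, SD, n = 4 libraries), 6.16 to 9.67 times its level in stromal-like cells of the same library. Theca-like cells, the androgen-producing layer outside the granulosa, followed at 531 ± 58.9 CPM. Luteal-like cells at 483 ± 197 and lymphatic endothelial-like cells at 395 ± 52.1 came next, and neighbours in this order overlapped. The luteal-like level varied most, at 504, 416, 270 and 742 CPM, so the libraries of 1 group lay on both sides of the other. After each cell was thinned to 2000 UMIs, 73.3 to 85.1% of GC-like cells had a Gja1 UMI, against 9.20 to 17.5% of NK or T-like cells, which should lack it, and 5.56 to 13.4% of macrophage-like cells. Without thinning the shares were 82.1 to 97.3%, 12.8 to 30.6% and 12.2 to 35.2%, at median depths of 4582 to 19192, 1359 to 3434 and 2346 to 8586 UMIs.

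Within the granulosa, Gja1 set cumulus-like cells apart from the other states. It was highest in mural-like cells, the cells that line the follicle wall, at 2318, 1934, 2128 and 1730 CPM (2028 ± 253). It was lowest in cumulus-like cells, which surround the oocyte, at 251, 268, 262 and 231 CPM (253 ± 16.4). Mural-like cells thus held 7.21 to 9.23 times the cumulus-like level within each library, and the groups of both conditions lay on the same side of that gap. The other states stood between them: mitotic-like cells at 1504 ± 170 CPM, mitotic-antral-like cells at 1480 ± 143, atretic-like cells at 1259 ± 279 and the cluster led by Amh and Cited1, genes of growing follicles, at 962 ± 156. Neighbours in the order from mural-like cells down to that cluster overlapped over libraries, and cumulus-like cells alone overlapped with none. After thinning, 94.6 to 98.2% of mural-like cells had a Gja1 UMI (99.5% or more without thinning, at medians of 4232 to 16589 UMIs), against 30.7 to 39.8% of cumulus-like cells (51.8 to 83.7% without thinning, at 3329 to 12512 UMIs). The cumulus-like share was therefore above that of NK or T-like cells.

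Cdh12, a type II cadherin better known from neurons, was highest in the state where Gja1 was lowest. It stood at 230, 276, 309 and 317 CPM in cumulus-like cells (283 ± 39.4) and at 1.06, 1.40, 0.802 and 1.43 CPM in mural-like cells. The Amh and Cited1 cluster held 11.3, 62.6, 37.4 and 12.5 CPM and mitotic-like cells 10.7, 26.9, 12.1 and 14.5 CPM, so that cumulus-like cells were 10.3 to 25.6 times higher than mitotic-like cells in the same library. Atretic-like and mitotic-antral-like cells stood at 3.09 ± 0.868 and 1.33 ± 0.439 CPM, and the latter overlapped with mural-like cells (1.17 ± 0.301). After thinning, 33.3 to 42.4% of cumulus-like cells had a Cdh12 UMI, against 0.214 to 0.680% of mural-like cells and 0 to 0.357% of NK or T-like cells (53.1 to 83.2%, 0.721 to 2.03% and 0 to 1.36% without thinning). Cdh12 spans chr15:20449265-21589533 on the plus strand, and its exons share that strand with exons of Gm49685, so reads of these 2 genes may not be fully told apart.

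Over all GC-like cells the Cdh12 level ran in the same order over libraries as the share of cumulus-like cells. It stood at 24.9, 87.8, 57.1 and 48.2 CPM, while cumulus-like cells were 432 of 4575, 2115 of 6624, 442 of 2201 and 351 of 2400 GC-like cells. As a ratio of highest to lowest library, the range was narrow within cumulus-like cells (230.5 to 317 CPM). By that ratio it was wider in the Amh and Cited1 cluster (11.3 to 62.6 CPM) and in mitotic-like cells (10.7 to 26.9 CPM). Whether the share of cumulus-like cells accounts for the GC-like level was not tested. Outside the granulosa Cdh12 was near the level of NK or T-like cells (1.29 ± 1.74 CPM), except for 27 UMIs in oocyte-like cells of Fosl2cKO replicate 2, in which 11.8% of cells had a UMI without thinning and 0% after it. Lymphatic endothelial-like cells held 0 UMIs in 322 cells, which allows at most 3.33 to 21.4 CPM per library (95% Poisson limit, counting error only).

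Cdh2 marked GCs without setting cumulus-like cells apart. It stood at 219, 248, 210 and 208 CPM in GC-like cells (221 ± 18.3), with epithelial-like cells (182 ± 25.2 CPM) overlapping and luteal-like cells below (126 ± 14.5). Among the named states its means ran from 147 ± 53.9 CPM in atretic-like cells to 271 ± 28.5 in mitotic-antral-like cells, with cumulus-like cells at 233 ± 16.0 and mural-like cells at 233 ± 63.1. The unnamed GC clusters lay outside that range, with means of 425 and 135 CPM. After thinning, 29.3 to 34.9% of GC-like cells had a Cdh2 UMI, against 0 to 1.25% of NK or T-like cells (59.4 to 81.9% and 0.532 to 1.69% without thinning).

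**Figure D2:**
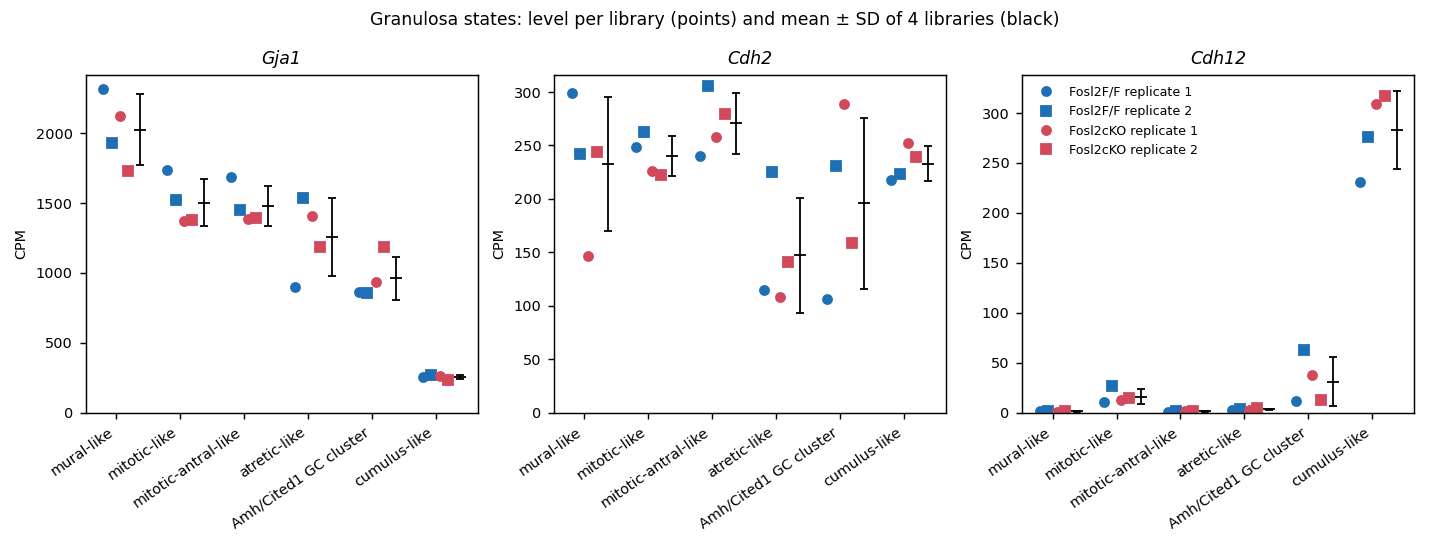
Gja1, Cdh2 and Cdh12 in the 6 named granulosa states, in CPM on linear axes that start at 0. Points are libraries (blue Fosl2F/F, red Fosl2cKO; circle replicate 1, square replicate 2), and black marks are the mean ± SD of 4 libraries. Gja1 is lowest and Cdh12 highest in cumulus-like cells (253 and 283 CPM), and Cdh2 spans 147 to 271 CPM.

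In single thinned cells, the contrast of Gja1 and Cdh12 lay between states more than within cumulus-like cells. Among GC-like cells, 32.0 to 44.7% of those with a Cdh12 UMI had a Gja1 UMI, against 78.7 to 86.7% of those without. Among cumulus-like cells alone the shares were 25.0 to 40.0% and 33.8 to 39.6%, close to each other in 3 libraries and lower with Cdh12 in Fosl2cKO replicate 1 (25.0 against 34.2%). These cells of a library are not replicates, and no test was run on them.

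Gja4 (chr4:127311421-127314039, minus strand) was the connexin of oocyte-like cells and of vessels. As a class, the 123 oocyte-like cells (29, 57, 20 and 17 per library) had UMIs of all 9 oocyte markers. Their median depths, 1754, 1527, 1715.5 and 4500 UMIs, were below those of their libraries, and thinning left 11, 20, 5 and 11 cells. The class held Gja4 at 554, 584, 777 and 547 CPM (615 ± 109, from 352 UMIs). Pericyte or smooth muscle-like cells (245 ± 55.0 CPM), endothelial-like cells (233 ± 72.7) and lymphatic endothelial-like cells (201 ± 56.0) followed and overlapped. All other named classes had means of 6.80 CPM or less. The mean in GC-like cells was 2.70 ± 1.88 CPM, where 0.170 to 1.31% of thinned cells had a UMI, a share within that of NK or T-like cells (0 to 1.15%) and macrophage-like cells (0 to 1.86%) or just above it, and it is read as background.

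That low Gja4 level and the oocyte markers were both highest in Fosl2F/F replicate 2 in GC-like, stromal-like, NK or T-like and macrophage-like cells, but not in epithelial-like cells. In GC-like cells Gja4 stood at 1.63, 5.50, 1.602 and 2.06 CPM, while the summed level of the 9 oocyte markers, all with UMIs there, was 18.9, 80.5, 7.09 and 16.1 CPM. In stromal-like cells Gja4 stood at 2.75, 9.56, 1.19 and 2.41 CPM, beside marker sums of 27.1, 160, 10.4 and 29.3. In NK or T-like cells, Gja4 stood at 1.49, 18.3, 0.920 and 2.74 CPM, beside sums of 23.8, 264, 8.28 and 39.8 from 8 of the 9 markers. In epithelial-like cells Fosl2F/F replicate 2 had the highest Gja4 level (4.05 against 0.285 to 0.635 CPM) and the lowest marker sum (150 against 172 to 248 CPM).

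**Figure D3:**
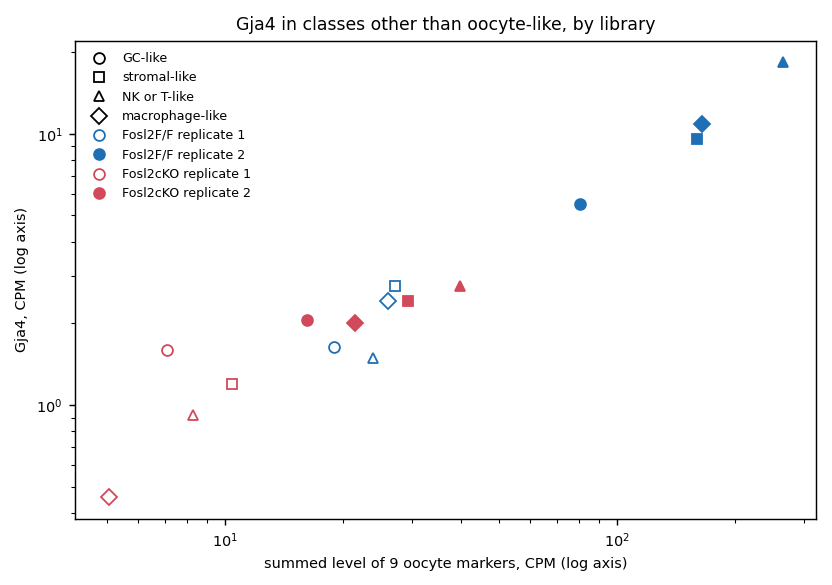
Gja4 against the summed level of 9 oocyte markers, both in CPM on log axes, in 4 classes other than oocyte-like cells. Colour and fill give the library and shape the class. The points of Fosl2F/F replicate 2 lie at the upper right, at 5.50 to 18.3 CPM of Gja4, and no other point exceeds 2.75.

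Oocyte-like cells held Cdh1 as well, at 43.4, 86.4, 114 and 44.6 CPM (72.2 ± 34.4, from 42 UMIs). The class that led for Cdh1 (chr8:106603351-106670246, plus strand) was epithelial-like, at 303, 685, 461 and 281 CPM (433 ± 187), 4.03 to 7.93 times the oocyte-like level. There, 35.5 to 57.3% of thinned cells had a Cdh1 UMI, against 1.07 to 5.41% of NK or T-like cells (65.0 to 81.4% and 1.06 to 4.37% without thinning). Epithelial-like cells carried Cdh2 (182 CPM) and Cdh11 (200 ± 32.7 CPM) too. Among thinned epithelial-like cells, a Cdh2 UMI was found in 22.5 to 33.3% of those with a Cdh1 UMI and in 20 to 36.2% of those without, so that both cadherins occurred in the same cells. NK or T-like cells held 17.8 ± 11.8 CPM of Cdh1, from 55 UMIs, at 16.4, 20.9, 31.3 and 2.74 CPM. The 34 UMIs of Fosl2cKO replicate 1 came from 4 cells, and each Fosl2F/F library held 8 cells with a UMI. GC-like cells held 1.03 ± 0.898 CPM.

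The other oocyte-like levels rested on few UMIs: 61 for Gja1 (87.6 ± 30.3 CPM), 23 for Cdh2, 11 for Gjc1, 10 for Cdh11, 7 for Cdh5 and 2 for Gja5. Their marker sums for granulosa genes were 526 to 1158 CPM, against 8529 to 13321 in GC-like cells, and the part of GC RNA in these levels was not tested.

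Gja5 (connexin 40), a connexin of arterial endothelium and heart, was rare and close to restricted to endothelial-like cells. It stood there at 56.9, 53.7, 37.5 and 24.4 CPM (43.1 ± 15.1), from 425 UMIs. Without thinning, 8.90 to 13.0% of endothelial-like cells had a Gja5 UMI, against 0 to 0.402% of NK or T-like cells, and after thinning 4.88 to 6.58% against 0 to 0.357%. The other classes had means of 3.72 CPM or less, and both lymphatic endothelial-like cells (322) and pericyte or smooth muscle-like cells (1092) held 0 Gja5 UMIs, which allows at most 3.33 to 21.4 and 1.88 to 3.64 CPM per library (95% Poisson limit). An exon of Gja5 (chr3:96904693-97077416, plus strand) overlaps an exon of Gpr89 on the other strand.

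Cdh5 and Gjc1 belonged to vessel lining and vessel wall. Cdh5 (chr8:104101625-104144511, plus strand) stood at 887, 853, 882 and 971 CPM in endothelial-like cells (898 ± 50.9) and at 560, 366, 519 and 470 CPM in lymphatic endothelial-like cells (479 ± 83.6), 1.58 to 2.33 times lower. After thinning, 72.3 to 81.4% of endothelial-like cells had a Cdh5 UMI, against 0 to 8.11% of NK or T-like cells (87.8 to 92.4% and 0.546 to 2.41% without thinning). Gjc1 (connexin 45; chr11:102799579-102819700, minus strand), a connexin of smooth muscle, stood at 478, 347, 233 and 688 CPM in pericyte or smooth muscle-like cells (437 ± 195), 4.32 to 7.08 times its level in endothelial-like cells (75.9 ± 25.1 CPM). Endothelial-like, stromal-like (57.5 ± 12.1 CPM) and lymphatic endothelial-like cells (57.2 ± 14.8 CPM) overlapped, and GC-like cells held 4.85 ± 0.452 CPM.

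Cdh11 (chr8:102632095-102785642, minus strand) led in stromal-like cells at 439, 440, 326 and 665 CPM (468 ± 142), where the libraries labelled Fosl2cKO gave both the lowest and the highest value. Epithelial-like, theca-like (193 ± 83.1 CPM) and pericyte or smooth muscle-like cells (155 ± 58.5 CPM) overlapped below it. The 4 unnamed clusters ranged from 83.9 to 427 CPM in their means, and 2 of these means lay within the stromal-like range. After thinning, 38.3 to 60.2% of stromal-like cells had a Cdh11 UMI, against 0 to 5.41% of NK or T-like cells (49.6 to 80.9% and 1.09 to 2.13% without thinning).

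The genes whose levels were most like those of a member, by Pearson's r of log2(mean CPM + 1) over 17 classes (the GC-like class entered as its 6 named states), are given as a description. They were Ganab, Cnot6 and Cradd for Gja1 (r = 0.930 to 0.910), Chrm3, Hoxa7 and Nrarp for Gja4 (0.962 to 0.917), Lhx6, Pik3c2b and Mecom for Gja5 (0.909 to 0.878) and Abcc9, Steap4 and Fbn1 for Gjc1 (0.934 to 0.918). They were Krtcap3, Epcam and Prss12 for Cdh1 (0.970 to 0.955), Lrrc2, 1010001N08Rik and Pawr for Cdh2 (0.928 to 0.914), Shank3, Taok2 and Thsd1 for Cdh5 (0.978 to 0.944), Fxyd1, Meis1 and Bicc1 for Cdh11 (0.961 to 0.922) and Crip3, Gtf2a1 and Tmem266 for Cdh12 (0.930 to 0.922). Abcc9 and Epcam were among the markers that named the pericyte or smooth muscle-like and epithelial-like classes. All classes share the same 4 libraries.

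The comparison of Fosl2cKO with Fosl2F/F asked whether deletion of Fosl2 in GCs went with other levels of these genes. No member passed the test in any class tested. The 10 classes were GC-like cells, their 6 named states, and stromal-like, endothelial-like and epithelial-like cells. Oocyte-like cells were compared by another test, given below. The other named classes were not compared between conditions, so Gjc1 was not tested in its leading class. With edgeR's quasi-likelihood test, 70 pairs of a member and a class were tested and 0 were called (Benjamini-Hochberg adjusted p below 0.1, with an absolute log2 fold change above 0.25). Of these pairs, 4 had an unadjusted p under 0.05. DESeq2 called 0 of the 70 and gave 3 at an unadjusted p under 0.05. The fitted change was negative, lower in the libraries labelled Fosl2cKO, for 53 of the 70, and for 34 of 72 without Fosl2F/F replicate 2. The pairs are not independent, because the GC-like fit holds the cells of its states and every fit uses the same 4 libraries. Over all genes tested the median log2 fold change lay between -0.023 and 0.0018 in each of the 10 classes.

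In GC-like cells 1 of all 17282 genes was called (0.00579%), against 167 by DESeq2, 258 without the filter on low counts and 0 to 144 when 1 library was left out, with 0 members among them in each case. The shares were 0.0157% in mural-like, 0.0152% in cumulus-like, 0.00765% in atretic-like, 0.00688% in mitotic-like and 0.00813% in mitotic-antral-like cells and 0.00797% in the Amh and Cited1 cluster. The called gene was Plb1 in each of these 7 fits, joined by Igfbp2 in mural-like and Socs1 in cumulus-like cells, all higher in the libraries labelled Fosl2cKO; these genes are named after their values were seen. The shares were 0.221% in stromal-like (31 genes), 0.177% in endothelial-like (20 genes) and 0.141% in epithelial-like cells (16 genes).

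In GC-like cells the log2 fold change was -0.15 ± 0.21 (SE) for Gja1, with a 95% interval from -0.65 to 0.36. It was -0.19 ± 0.16 for Cdh2 (-0.56 to 0.19) and -0.10 ± 0.50 for Cdh12 (-1.30 to 1.09), and the adjusted p was 0.9998 for each (edgeR). Both Cdh2 values of the libraries labelled Fosl2cKO (210 and 208 CPM) lay below both Fosl2F/F values (219 and 248 CPM), a gap smaller than the spread between the controls. The Cdh12 interval was the widest of the 3. Leaving out 1 library turned the direction of Gja1 (0.12 without Fosl2F/F replicate 1) and of Cdh12 (1.01 without Fosl2F/F replicate 2). In mural-like cells Gja1 differed by -0.19 ± 0.23 (-0.72 to 0.33) and in cumulus-like cells by -0.13 ± 0.20 (-0.58 to 0.32). Cdh12 in cumulus-like cells stood higher in both libraries labelled Fosl2cKO (309 and 317 against 230 and 276 CPM), at 0.26 ± 0.21 (-0.20 to 0.72) and an adjusted p of 0.99997 by edgeR.

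**Figure D4:**
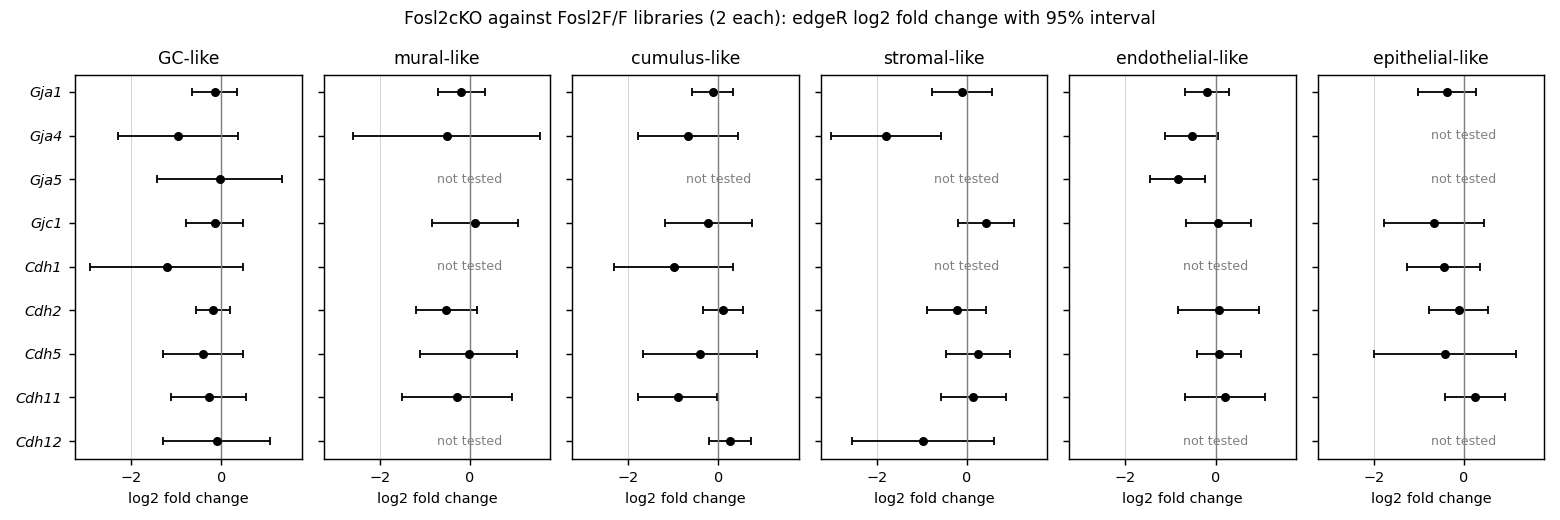
Fitted log2 fold change of each gene, libraries labelled Fosl2cKO against Fosl2F/F (2 each), with its 95% interval, in 6 of the 10 classes tested. Positive values are higher in Fosl2cKO, and "not tested" marks genes removed by the filter on low counts. None passed the test, and the intervals of Gja5 in endothelial-like cells, Gja4 in stromal-like cells and Cdh11 in cumulus-like cells do not reach 0.

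The 4 pairs with an unadjusted p under 0.05 were all lower in the libraries labelled Fosl2cKO. Gja5 in endothelial-like cells differed by -0.84 ± 0.28 (edgeR, adjusted p = 0.627), with the groups apart (56.9 and 53.7 against 37.5 and 24.4 CPM). Without thinning, the share of endothelial-like cells with a Gja5 UMI was 12.03, 10.6, 13.0 and 8.90% in the same order, where the groups overlapped. The median depths were 5123, 3411.5, 8083 and 6431 UMIs, deeper in the libraries labelled Fosl2cKO. After thinning the share was 6.25, 6.58, 6.21 and 4.88%, from 7, 30, 10 and 8 cells, and the groups did not overlap. Of the 14 arterial genes, all tested in this class, edgeR called 0 (2 at an unadjusted p under 0.05), with a median log2 fold change of -0.22. Without Fosl2cKO replicate 2 the Gja5 difference was -0.57 (edgeR, adjusted p = 0.9997).

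Gja4 differed by -1.80 ± 0.58 in stromal-like cells (adjusted p = 0.528) and by -1.89 ± 0.65 in the Amh and Cited1 cluster (adjusted p = 0.836, edgeR for both). Both are classes in which its level is near the background. In the Amh and Cited1 cluster Gja4 stood at 2.65, 8.40, 1.93 and 1.196 CPM, beside oocyte marker sums of 10.7, 90.3, 6.06 and 14.5. Fosl2F/F replicate 2 was highest in both, and the other libraries did not keep 1 order in the 2 measures. Without Fosl2F/F replicate 2 the differences were -0.63 and -0.96 (edgeR, adjusted p = 0.890 and 0.704). Without Fosl2cKO replicate 2, which left 1 library in that group, the stromal-like difference was -2.34 and passed the thresholds. In the Amh and Cited1 cluster, Cdh12 passed without Fosl2cKO replicate 1, at -1.56. There the remaining Fosl2cKO library stood at 12.5 CPM, between Fosl2F/F replicates 1 and 2 (11.3 and 62.6 CPM). Such fits with 1 library in a group are read for size only. The part of oocyte RNA in the Gja4 differences was not tested. Cdh11 in cumulus-like cells differed by -0.91 ± 0.40 (edgeR, adjusted p = 0.99997), at 5.75, 6.85, 2.65 and 4.39 CPM, levels like the 6.11 ± 3.14 CPM of NK or T-like cells.

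Among the members in their leading classes outside the granulosa, Cdh5 in endothelial-like cells differed by 0.09 ± 0.23 (-0.40 to 0.58). Cdh11 in stromal-like cells differed by 0.14 ± 0.35 (-0.59 to 0.87), and Cdh1 in epithelial-like cells by -0.45 ± 0.39 (-1.27 to 0.36). Both directions turned when 1 library was left out, to -0.40 for Cdh11 without Fosl2cKO replicate 2 and to 0.27 for Cdh1 without Fosl2F/F replicate 2. In oocyte-like cells an exact two-sided permutation test of 2 against 2 libraries can give no p below 0.33. This exact test gave p = 1.0 for Gja4, at 569 ± 21.3 CPM (SD, n = 2) in Fosl2F/F and 662 ± 163 in Fosl2cKO libraries, p = 0.667 for Cdh1 and p = 0.33 to 1.0 for the other genes. The change with condition was also compared between GC-like and stromal-like cells and between mural-like and cumulus-like cells, for 8 members each. No member passed the interaction test of edgeR (0 and 1 at an unadjusted p under 0.05), and 0% of all genes were called in each. The 1 was Cdh2, with a difference of -0.69 ± 0.29 between mural-like and cumulus-like cells (adjusted p = 1.0). Mural-like Cdh2 stood at 299, 242, 147 and 244 CPM, so that Fosl2cKO replicate 1 alone was low, and without it the difference was -0.28. Without Fosl2cKO replicate 2, which left 1 library in that group, Cdh12 passed in GC-like against stromal-like cells, at a difference of 3.39. Stromal-like Cdh12 in the remaining Fosl2cKO library rested on 2 UMIs (0.217 CPM), near the background of NK or T-like cells (mean 1.29 CPM). That fit is read for size only.

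The lists of other junction and vessel genes gave the same picture. Between 28 and 49 list genes were tested per class, and edgeR called 0 in each class, with 0 to 6 at an unadjusted p under 0.05. DESeq2 called 1, the arterial transcription factor gene Sox17 in endothelial-like cells, at 1.48 ± 0.38 (adjusted p = 0.0457); edgeR gave 1.49 ± 0.35 and an adjusted p of 0.216.

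Endothelial-like cells with and without a Gja5 UMI were then compared within each library, with the library as a block and Gja5 itself left out. The split held 16 of 133, 65 of 614, 24 of 184 and 17 of 191 cells. Cells with a Gja5 UMI had median depths of 5593, 4653, 7804 and 13688 UMIs, against 4979, 3341, 8216 and 5490 without, so they were deeper in 3 of 4 libraries. Of 8432 genes tested, edgeR called 1482 (17.6%), 770 higher (9.13%) and 712 lower (8.44%).

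Gja4 was the member that rose most. Cells with a Gja5 UMI held it at 1366, 699, 684 and 802 CPM (888 ± 323), and the other endothelial-like cells at 144, 115, 96.0 and 107 CPM (116 ± 20.5). The groups were far apart in each library, and the log2 fold change was 2.90 ± 0.15 (edgeR, adjusted p = 1.275e-07), with 2.17 after thinning. In thinned cells, 70.0% or more of endothelial-like cells with a Gja5 UMI also had a Gja4 UMI, against 15.9 to 24.8% of those without, so the 2 connexins were found in the same cells. Most Gja4-bearing endothelial-like cells still had no Gja5 UMI (14.6 to 24.0% had one).

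Cdh5 rose by 0.35 ± 0.12 (edgeR, adjusted p = 0.0843), from 863 ± 36.6 to 1091 ± 145 CPM. This call was lost without Fosl2F/F replicate 1, Fosl2F/F replicate 2 or Fosl2cKO replicate 2 (edgeR, adjusted p = 0.251, 0.230 and 0.234), although the fold change stayed at 0.28 to 0.39 without any 1 library, and after thinning it was -0.22. Gja1 (-0.12 ± 0.22), Gjc1 (0.29 ± 0.21) and Cdh2 (0.41 ± 0.35) did not pass the test. Cdh1, Cdh11 and Cdh12 were removed by the filter on low counts.

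All 14 genes of the arterial list, which has no genes in common with the members, rose with Gja5 (edgeR, median log2 fold change 2.58, against 0.0030 over all genes tested), and all 14 still did without any 1 library and 12 of the 13 still tested did after thinning. They included Bmx, an arterial kinase gene, at 3.54 ± 0.23, Sema3g at 3.12 ± 0.18, the Notch ligand genes Jag1 at 2.66 ± 0.16 and Dll4 at 1.09 ± 0.14, the Notch target Hey1 at 2.21 ± 0.17, and Efnb2, the arterial ephrin, at 1.45 ± 0.13. Of the 5 capillary genes, 3 were tested and all 3 were called lower: Gpihbp1, which carries lipoprotein lipase across capillaries, by 3.31 ± 0.56, Cd300lg by 2.07 ± 0.49 and Rgcc by 1.22 ± 0.30. Rgcc did not fall in every library: in Fosl2cKO replicate 2 it stood at 378 CPM with and 366 CPM without a Gja5 UMI. Its mean in GC-like cells was 139 CPM. After thinning 1 capillary gene was still tested and was called lower, and without Fosl2F/F replicate 2 the test called 1 of 3 lower.

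The venous list divided. Nr2f2, the vein-specifying transcription factor, fell by 1.15 ± 0.26 and Ephb4, the venous ephrin receptor, fell by 0.61 ± 0.20, while Vwf (2.01 ± 0.21) and Vcam1 (2.91 ± 0.27), adhesion genes not exclusive to veins, rose. Selp (-0.84 ± 0.50) did not pass, and Ackr1 was not tested. The venous genes called lower numbered 0 of 4 tested after thinning, and 1 of 5 without Fosl2F/F replicate 1, Fosl2cKO replicate 1 or Fosl2cKO replicate 2. The lists were chosen with earlier results known, and a list's count is read beside the 9.13% and 8.44% of all genes.

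**Figure D5:**
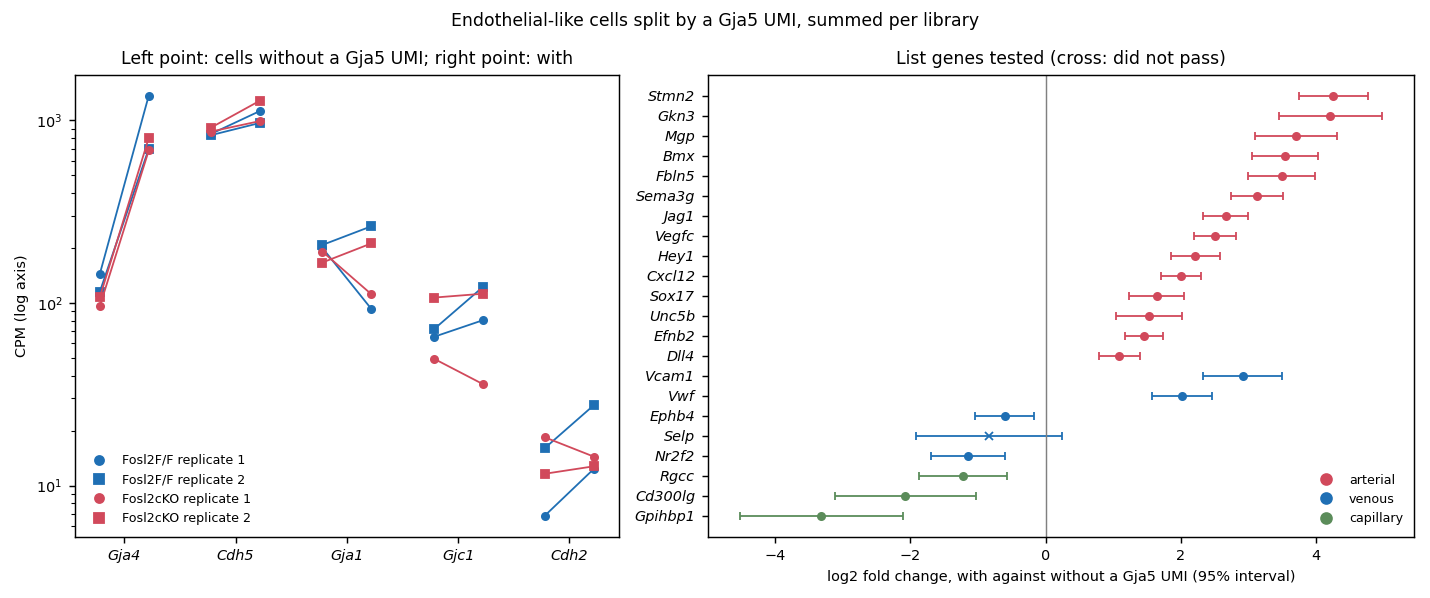
Endothelial-like cells split by a Gja5 UMI. Left, CPM (log axis) of 5 genes in cells without (left point) and with (right point) a Gja5 UMI, 1 line per library (blue Fosl2F/F, red Fosl2cKO; circle replicate 1, square replicate 2); right, log2 fold changes of list genes with 95% intervals. Gja4 rises in all 4 libraries, the 14 arterial genes lie to the right of 0 and the 3 capillary genes to the left.

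The largest rises among genes at 20 CPM or more that moved the same way in every library were Stmn2 (4.25 ± 0.23), Atp2a3 (4.22 ± 0.34), Gkn3 (4.21 ± 0.36), Ptchd1, Eln (elastin, 3.94 ± 0.45), the Wnt inhibitor gene Dkk2 (3.87 ± 0.22), Igf2 and Arhgap44. The largest falls were those of the synaptic adhesion gene Nlgn1 (-4.75 ± 0.40), the apelin receptor gene Aplnr (-3.89 ± 0.41), Tgfbi (-3.74 ± 0.40), Trp53i11 (-3.34 ± 0.27) and Gpihbp1. Of 13 junction adaptors tested, the catenin genes Ctnna2 (1.62 ± 0.45) and Ctnna3 (0.71 ± 0.23) and Tjp1, which encodes ZO-1 (0.70 ± 0.14), rose and Nectin2 (-0.95 ± 0.18) fell. Adaptors called higher were 0 of 9 tested after thinning, and 1 of 11 under stricter doublet removal or without Fosl2F/F replicate 2. In each of these settings 1 adaptor was called lower. Of 2 other cadherins tested, Cdh13, the membrane-anchored T-cadherin, rose (4.17 ± 0.57) and Cdh4 fell (-2.0 ± 0.45). Without Fosl2F/F replicate 2, only 1 cadherin of that list was tested and 0 were called.

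Smooth muscle and pericyte markers summed to 1614, 853, 288 and 651 CPM in cells with a Gja5 UMI and to 772, 346, 464 and 486 CPM in those without, higher with a Gja5 UMI in 3 of 4 libraries. Granulosa markers summed to 464, 1011, 256 and 176 CPM with and 588, 319, 231 and 232 CPM without, higher with a Gja5 UMI in 2 of 4 libraries and most so in Fosl2F/F replicate 2. Luteal markers (126 to 283 against 389 to 541 CPM) and lymphatic markers (43.2 to 61.8 against 81.8 to 96.0 CPM) were lower with a Gja5 UMI in every library. Stromal markers summed to 232 to 456 against 296 to 526 CPM, lower with a Gja5 UMI in 3 of 4 libraries. Epithelial markers summed to 133 against 10.1 CPM in Fosl2cKO replicate 1 and to 24.7 CPM or less in both kinds of cells of the other libraries. Oocyte markers summed to 2.55 to 32.0 against 4.13 to 63.4 CPM. Their part in the differences was not tested.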

How the data were processed

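Ovaries of 4 libraries, 2 per group, were profiled with 10x 3′ chemistry. The authors deposited raw UMI counts, whole numbers for each gene in each barcode. They aligned with Cell Ranger to GRCm38. The matrix header names version 7.1.0, another than the methods, and whether CellBender's background correction is in the counts is not given in the sources used here; Seurat 4.1.0 is among the tools in the submitters' processing notes. No barcode held fewer than 500 UMIs, and 0 sample columns were left unused.

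The kept cells had 500 genes or more, more than 1000 UMIs, and less than 10% and 0.1% of UMIs from mitochondrial and hemoglobin genes, respectively. Scrublet (scanpy 1.11.5) removed 0.8% of cells per 1000 cells, 5.74 to 19.4% of a library. Libraries were normalized with SCTransform (sctransform 0.4.2) and integrated by reciprocal PCA (Seurat 5.3.0, 3000 features without the 9 genes, 30 dimensions), then clustered at resolutions of 0.8 (all cells) and 0.5 (GC-like cells). Clusters were named from markers that exclude the 9 genes.

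UMIs were summed per class and library. Fits between conditions took the GC-like class, its named states, and stromal-like, endothelial-like and epithelial-like cells, each with at least 20 cells per library. That floor was not applied to the Gja5 split. There, cells with a Gja5 UMI numbered as few as 16 in a library, and 5 after thinning. Conditions were compared with edgeR 4.0.16 (R 4.3.3; TMM scaling, filterByExpr, quasi-likelihood test, Benjamini-Hochberg adjustment over all genes tested), calling genes at an adjusted p below 0.1 and an absolute log2 fold change above 0.25, after the cutoffs with which the study filtered gene lists for pathway analysis (log base not given). The Gja5 split and the interactions had the library as a block. Oocyte-like cells were compared by an exact permutation test (scipy 1.17.1). Shares of cells were taken after thinning each cell to 2000 UMIs, which left out 4.23 to 20.3% of cells of a library. The fits were also run on simulated counts with known changes, and the outcome is not given here. Alternatives were DESeq2 1.42.0, RLE scaling, no gene filter, a replicate block, other clusterings, doublet and depth limits, and leaving out each library.

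Named genes were the 9 members, list genes that passed or were the 2 highest of their list in a class, the 3 genes most alike (mean of at least 20 CPM in a class), and in the split the 8 largest rises and 5 largest falls among called genes with a mean of at least 20 CPM that moved the same way in 4 libraries. The members and lists were chosen with earlier results of these data known. Replicate numbers come from the titles. Deviations of same-numbered libraries correlated at -0.35 in GC-like, -0.06 in stromal-like, -0.16 in endothelial-like and -0.07 in epithelial-like cells, so the numbers were not taken as pairs. Gene positions are from GENCODE M21 (GRCm38). Intervals on counts cover counting error only, at 95%.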

Additional observations from a re-analysis of the deposited data

How the results depend on the processing

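All 9 leading classes were kept under each clustering and cell filter tried. Members called stayed at 0 in 8 of 10 classes under all alternatives; without the gene filter, Gja4 was called in the Amh and Cited1 cluster and in stromal-like cells (1 member each). Leaving out a library left 1 library in its group, so members that then passed are given by size only. In these 2 classes they were Cdh12 in the former without Fosl2cKO replicate 1 (-1.56) and Gja4 in the latter without Fosl2cKO replicate 2 (-2.34). In the interaction of GC-like and stromal-like cells it was Cdh12 without Fosl2cKO replicate 2 (3.39). The shares of all genes called in these fits are not given here. Under no gene filter 2 of 90 pairs were called. Among the fold changes followed under every alternative, those that turned sign, none past the threshold, were those of Cdh12 in GC-like cells with a replicate block (0.14), with crossed numbers (0.13) and when libraries were left out (-0.71 to 1.01), of Gja1 in GC-like cells (-0.36 to 0.12), Cdh11 in stromal-like cells (-0.40 to 0.55), and Cdh1 (-0.93 to 0.27) and Cdh2 (-0.30 to 0.095) in epithelial-like cells, and, for a value past it, of Cdh5 in the Gja5 split after thinning (-0.22). Of all members, 9 of 9 were below 0 in GC-like cells but 4 of 9 without Fosl2F/F replicate 2, and 5 of 6 in mural-like cells but 2 of 6 without integration. The cause was not tested.

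In the Gja5 split, members called were 1 (Gja4) at an adjusted p under 0.05, after thinning and without the gene filter, and 1 to 2 when libraries were left out. Venous genes lower were 1 at an adjusted p under 0.05, 0 of 4 tested after thinning and 1 to 2 when libraries were left out, and capillary genes lower were 1 of 1 tested after thinning and 1 to 3. All genes called were 376 after thinning, where 3132 genes were tested, and 835 to 1656 when libraries were left out (835 without Fosl2F/F replicate 2, without which 1 capillary gene was called lower).

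With the replicate block the edgeR fit called 0 members (4 at an unadjusted p under 0.05). The crossed pairing also called 0, and 5 had an unadjusted p under 0.05. Of all genes in GC-like cells, 61 were called with the block, 2 crossed, 167 by DESeq2, 258 without the gene filter and 0 to 144 without 1 library, against 1. In the other 9 classes, where 1 to 31 genes were called, DESeq2 called 18 to 163, the fit without the gene filter 140 to 741, the block 0 to 54 and the crossed pairing 1 to 438. Without integration no atretic-like cells and no Amh and Cited1 cluster were found, and those values were not computed. With 2 libraries per group, the intervals of GC-like Gja1 and Cdh2 reach 0.65 and 0.56 below 0 on the log2 scale, and changes within these intervals could not be told from 0.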

Other observations

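The 2 genes of each junction list with the most UMIs in a class are given as levels, mean CPM over the 4 libraries; these are levels of single genes, and genes are not compared with each other. In GC-like cells the adaptor genes so named were Ctnnd1, which encodes p120-catenin (374 ± 64.5 CPM, SD, n = 4), and Ctnna2, an alpha-catenin better known from neurons (284 ± 84.0). Endothelial-like cells held Ctnnb1 at 544 ± 35.2 and Ctnna1 at 447 ± 48.0 CPM, and epithelial-like cells Ctnna1 at 707 ± 132 and the vinculin gene Vcl at 513 ± 103. Of cadherins other than the 5 described, P-cadherin (Cdh3) stood at 84.2 ± 21.2 CPM in epithelial-like cells and Cdh13 at 50.3 ± 37.1 in endothelial-like cells, where the libraries ranged from 7.73 to 90.5 CPM. In GC-like cells no other cadherin of the list had a mean over 7.21 CPM.

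Of the other connexins and pannexins, Panx1 stood at 14.6 ± 3.46 CPM in GC-like, 16.8 ± 1.98 in endothelial-like, 6.33 ± 1.58 in epithelial-like and 31.2 ± 25.9 in oocyte-like cells, the last from 14 UMIs. All others of that list had means of 0.756 CPM or less in GC-like cells and of 0.343 or less in endothelial-like cells. In oocyte-like cells the Notch ligand gene Jag1 stood at 448 ± 257 CPM, from 229 to 812 over libraries.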
